A study of Mus musculus with 2 samples.

Results

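The genes described here encode the B7 ligands, surface proteins through which one cell raises or restrains the response of a T cell, together with the nectin-like ligand Pvr, which has the same role towards T and NK cells. The 8 genes (Cd80, Cd86, Cd274, Pdcd1lg2, Icosl, Cd276, Vtcn1 and Pvr) were taken as a fixed list and matched by symbol to probe sets annotated with 1 gene, and all 8 of 8 were found among 19751 named genes. They were measured in 2 arrays of 1 group, fibroblastic reticular cells (FRCs) grown out from lymph node stroma of untreated C57BL6/J mice that were 4 to 6 weeks old. Culture lasted 7 to 10 days, in αMEM that contained 10% serum from fetal calves. By its source label the material was purified, whereas the growth protocol speaks of the whole stromal fraction. Neither states how many animals were pooled or whether each replicate was a culture of its own, and part of their spread may therefore be technical. The series holds no second condition and no other cell type, so no test between groups was possible and no p-value is given.

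FRCs are the fibroblasts that line the conduits of the T cell zone and touch the T cells and dendritic cells moving along them. CD80 and CD86 bind CD28, which lowers the threshold for T cell activation, and CTLA-4, which raises it. PD-L1, encoded by Cd274, and PD-L2, encoded by Pdcd1lg2, bind the inhibitory receptor PD-1, and ICOS ligand, encoded by Icosl, binds ICOS. B7-H3 (Cd276) and B7-H4 (Vtcn1) are mainly known for restraining T cells, and Pvr, also called CD155, binds the activating receptor CD226 and the inhibitory receptors TIGIT and CD96. CD80 and CD86 are best known from dendritic cells, macrophages and B cells, whereas PD-L1, B7-H3 and CD155 are also made by many cells outside the blood lineage.

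The promoter windows of 4 members are shown first, because they let the start regions of genes with and without signal be read side by side, above all those of Cd274 and Pdcd1lg2. These are close neighbours on chromosome 19, with 1 entry of the RefSeq gene table and 0 protein-coding genes between their starts. Each sequence is the RefSeq window of 300 bases around the annotated start, written 5′ to 3′ on the gene's own strand, and capitals mark matches to the motifs named after them.
Cd80 promoter, GRCm38.p6 chr16:38458683-38458982, plus strand: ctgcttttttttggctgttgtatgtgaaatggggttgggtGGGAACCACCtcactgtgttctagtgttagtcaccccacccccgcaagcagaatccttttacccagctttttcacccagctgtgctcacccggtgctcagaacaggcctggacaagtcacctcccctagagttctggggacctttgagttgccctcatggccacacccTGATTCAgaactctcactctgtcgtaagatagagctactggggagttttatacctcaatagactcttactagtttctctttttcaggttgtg
Cd276 promoter, GRCm38.p6 chr9:58554984-58555283, minus strand: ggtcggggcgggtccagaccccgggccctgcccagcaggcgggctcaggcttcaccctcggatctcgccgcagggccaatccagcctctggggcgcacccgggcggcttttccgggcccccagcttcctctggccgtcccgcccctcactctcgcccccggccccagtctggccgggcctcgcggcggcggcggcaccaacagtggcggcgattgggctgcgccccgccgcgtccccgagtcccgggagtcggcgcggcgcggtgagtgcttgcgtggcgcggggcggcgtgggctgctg
Cd274 promoter, GRCm38.p6 chr19:29367188-29367487, plus strand: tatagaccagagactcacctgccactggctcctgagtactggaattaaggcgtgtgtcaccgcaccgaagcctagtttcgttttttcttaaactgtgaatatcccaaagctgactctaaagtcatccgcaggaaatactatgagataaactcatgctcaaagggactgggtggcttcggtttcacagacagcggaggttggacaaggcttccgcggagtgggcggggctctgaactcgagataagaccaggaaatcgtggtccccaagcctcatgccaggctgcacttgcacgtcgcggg
Pdcd1lg2 promoter, GRCm38.p6 chr19:29410669-29410968, plus strand: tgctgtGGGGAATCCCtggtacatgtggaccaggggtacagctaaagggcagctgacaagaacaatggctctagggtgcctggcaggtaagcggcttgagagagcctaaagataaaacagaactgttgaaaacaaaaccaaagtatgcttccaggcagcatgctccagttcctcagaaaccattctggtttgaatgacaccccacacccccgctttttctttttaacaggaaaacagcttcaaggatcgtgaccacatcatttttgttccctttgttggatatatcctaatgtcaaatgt

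The windows were searched on both strands for 5 motifs, in which N is any base. They were GAAA repeated after 2 or after 3 bases as interferon response patterns, TTC and GAA set 3 bases apart as a STAT pattern, GGGA followed after 4 bases by CC as an NF-kB pattern, and TGANTCA as an AP-1 pattern. A match to one motif may overlap a match to another. RefSeq windows were at hand for 6 of the 8 members, all except Cd86 and Pvr. The Cd80 window held GGGAACCACC, which fits the NF-kB pattern, and TGATTCA, which fits the AP-1 pattern. The Pdcd1lg2 window held GGGGAATCCC, an NF-kB pattern on the opposite strand, and of the windows not shown, that of Icosl held the NF-kB pattern match GGGATGGGCC and that of Vtcn1 the AP-1 pattern match TGAGTCA. No match to the 5 motifs was found in the windows of Cd274 and Cd276. Among 32851 mouse promoter windows of the same length, 20.7% held the NF-kB pattern, 7.81% the AP-1 pattern, 8.3% the STAT pattern, and 3.44% and 2.75% the interferon response patterns with the shorter and the longer spacing. Base composition differed between the windows: that of Cd276 had 39 CpG dinucleotides and 78.3% G and C, that of Cd274 had 15 and 52.7%, and those of Cd80 and Pdcd1lg2 had 3 each, where the median of all windows was 7 CpG and 52.7% G and C. The matches and the composition describe these letters and were not tested against the signal.

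The members split evenly at the background limit. Cd80, Cd274, Cd276 and Pvr gave signal above it on both arrays, and Cd86, Pdcd1lg2, Icosl and Vtcn1 lay below it on both arrays. Levels are log2 values of the deposited intensities, and each is the signal of that gene's own probes, so levels are not ranked between genes. To set it, 1035 olfactory receptor probe sets were taken as a measure of signal without transcript, and their 95th percentile gave limits of 7.15 on replicate 1 and 7.17 on replicate 2. The 4 of 8 members above this limit stand beside 67.3% of all named genes. A stricter limit came in the same way from 19 probe sets whose genes belong to other tissues, such as liver, testis, heart and brain, and was 8.18 and 8.23 (the tissue-restricted limit). The same 4 of 8 members passed it, against 48.9% of all named genes, so the members' share was below the background share at the first limit and close to it at the second. As each array measured the RNA of many cells together, fewer cells carrying a transcript and less transcript per cell cannot be told apart.

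**Figure D1:**
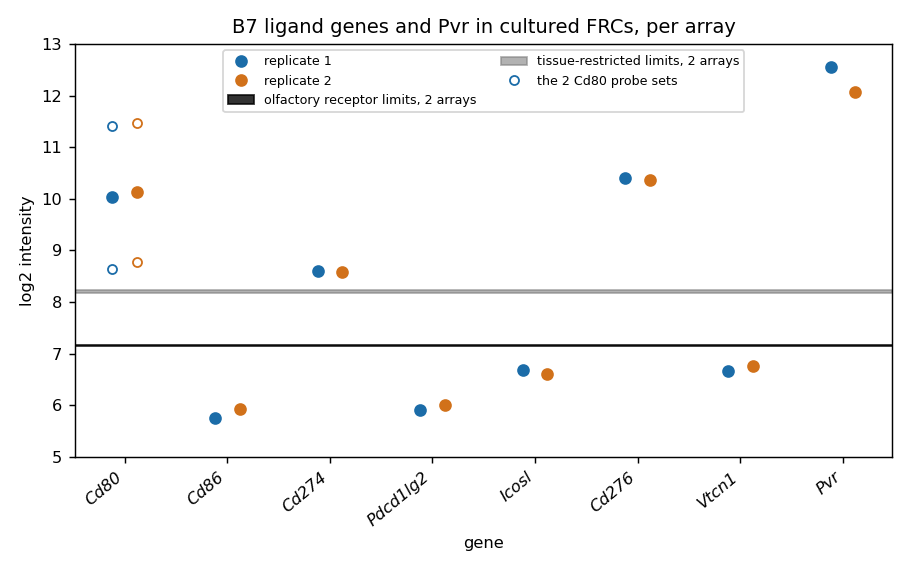
Log2 intensity (vertical axis) of the 8 genes on replicate 1 (blue) and replicate 2 (orange); open circles are the 2 probe sets whose mean is the Cd80 value, and the dark and grey bands span the limits of the 2 arrays. Cd80, Cd274, Cd276 and Pvr lie above both bands on both arrays, and Cd86, Pdcd1lg2, Icosl and Vtcn1 lie below both.

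Of the 2 ligands of CD28 and CTLA-4, Cd80 gave signal and Cd86 did not. Cd80 had a level of 10.03 on replicate 1 and 10.12 on replicate 2 (10.07 ± 0.07, SD, n = 2). It exceeded the tissue-restricted limit by 1.85 and 1.89 log2 units, and 0 of 1035 olfactory receptor probe sets were brighter on either array. Cd86 had 5.75 and 5.92 (5.83 ± 0.12, SD, n = 2). This is inside the body of the background signal, since 369 olfactory receptor probe sets (35.7%) on replicate 1 and 329 (31.8%) on replicate 2 were brighter. The arrays were similar for both genes, and neither gene's values reached the other side of a limit.

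Cd80 was the 1 member with more than 1 probe set, and its probe sets differed in level. The probe set annotated with the RefSeq mRNA, among 12 accessions, had 11.41 on replicate 1 and 11.48 on replicate 2. The other, annotated with 2 accessions of which 0 were RefSeq mRNAs, had 8.65 and 8.77. The gap between them was 2.76 log2 units on replicate 1 and 2.71 on replicate 2, so it was alike on both arrays, and each probe set passed both limits on both arrays. The Cd80 level above is the mean of the 2 on the log2 scale and depends on that choice. Its place above the olfactory receptor and tissue-restricted limits does not. The dimmer probe set alone lay below the brightest olfactory receptor probe set of each array (9.51 and 9.46). The count of 0 brighter olfactory receptor probe sets given for Cd80 therefore also depends on that choice.

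The ligands of PD-1 divided in the same manner. Cd274 had a level of 8.60 on replicate 1 and 8.59 on replicate 2 (8.59 ± 0.01, SD, n = 2). It exceeded the tissue-restricted limit by 0.42 and 0.35 log2 units, and 5 of 1035 olfactory receptor probe sets (0.483%) were brighter on each array. Its intensities on the linear scale were 387 and 384. Pdcd1lg2 had 5.90 and 6.00 (5.95 ± 0.07, SD, n = 2), below 327 olfactory receptor probe sets (31.6%) on replicate 1 and 293 (28.3%) on replicate 2. Both values of Pdcd1lg2 were more than a full log2 unit under the limit.

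Icosl and Vtcn1 also lay in the background signal. Icosl had a level of 6.69 on replicate 1 and 6.60 on replicate 2 (6.64 ± 0.06, SD, n = 2), with 117 (11.3%) and 146 (14.1%) olfactory receptor probe sets brighter. Vtcn1, whose protein is known mainly from epithelia and tumours, had 6.67 and 6.76 (6.72 ± 0.06, SD, n = 2), with 120 (11.6%) and 101 (9.76%) brighter. Both genes lay below the limit on both arrays. A transcript at low level cannot be told from background for these 4 genes, so their values do not show that the transcripts were absent.

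**Figure D2:**
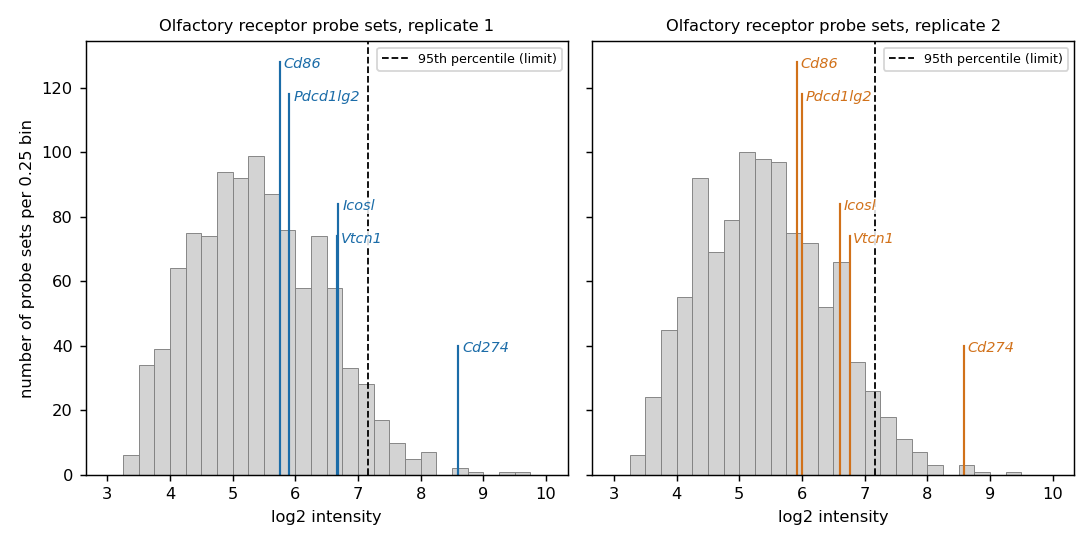
Number of olfactory receptor probe sets (vertical axis) per bin of log2 intensity (horizontal axis) on replicate 1 (left) and replicate 2 (right), with vertical lines at the levels of 5 genes, whose heights carry no value. Cd86, Pdcd1lg2, Icosl and Vtcn1 fall left of the dashed limit at 7.15 and 7.17, inside the background distribution, and Cd274 at 8.60 and 8.59 falls in its far upper tail.

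Cd276 and Pvr gave signal over both limits. Cd276 had a level of 10.40 on replicate 1 and 10.36 on replicate 2 (10.38 ± 0.02, SD, n = 2), which is 2.22 and 2.13 log2 units over the tissue-restricted limit. Pvr had 12.56 and 12.07 (12.32 ± 0.35, SD, n = 2), which is 4.38 and 3.84 log2 units over it. On the linear scale the Pvr intensities were 6043 on replicate 1 and 4302 on replicate 2. For both genes 0 of 1035 olfactory receptor probe sets were brighter on either array.

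The arrays were alike for 3 of the 4 members with signal and differed more for Pvr. The difference is given as replicate 1 minus replicate 2 on the log2 scale, and was 0.01 for Cd274, 0.03 for Cd276 and -0.10 for Cd80. For Pvr it was 0.49, a 1.40-fold higher intensity on replicate 1. Of these 4 genes, 0 differed by 2-fold, as did 1.41% of the 13577 genes whose mean exceeded the mean limit of 7.16, and 0 differed by 1.5-fold, as did 4.77% of those genes. A difference larger in size than that of Pvr was found in 6.61% of the 13577 genes, and in 28 (3.52%) of the 796 genes within 0.5 log2 units of its mean level, a comparison chosen after its value was seen. The same count at a like level was 1708 of 2820 genes (60.6%) for Cd80, 2271 of 2675 (84.9%) for Cd276 and 2533 of 2665 for Cd274. A single array on each side gives this difference no replicate check. The 4 members below the limit differed by between 0.08 and 0.16 log2 units in size, but RMA compresses differences at low signal.

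**Figure D3:**
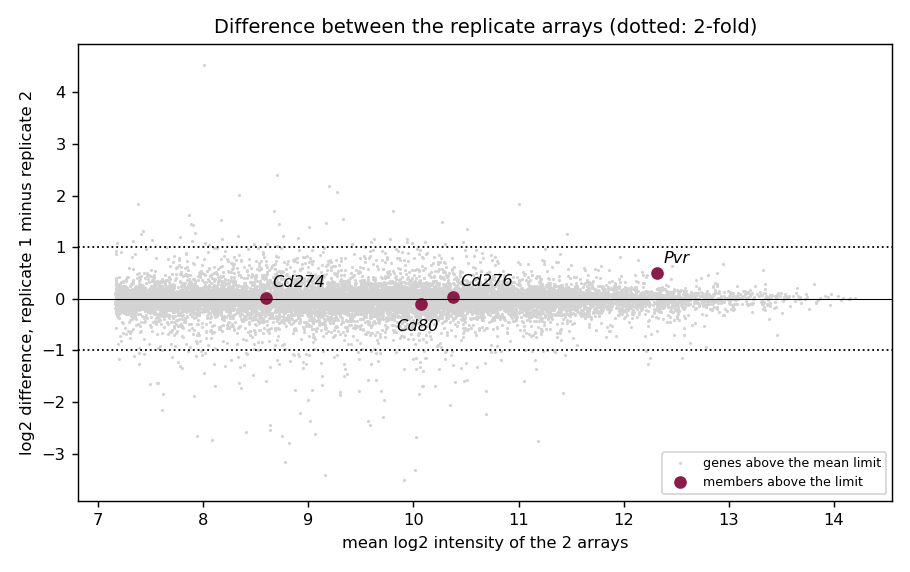
Difference between the arrays (vertical axis, log2, replicate 1 minus replicate 2) against the mean log2 intensity (horizontal axis) for the 13577 genes above the mean limit (grey), with the 4 members above the limit in dark red and dotted lines at 2-fold. Cd274, Cd80 and Cd276 sit near 0, and Pvr sits at 0.49, inside the dotted lines.

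Of 9 genes for receptors and partners of the ligands, 4 (44.4%) were above the olfactory receptor limit, beside 67.3% of all named genes. Above the tissue-restricted limit were 2 (22.2%), Tigit and Rgmb, beside 48.9% of all named genes. Cd28 (6.53 and 6.54 on replicates 1 and 2), Ctla4 (6.04 and 6.08) and Icos (6.66 and 6.79), which encode T cell receptors for B7 ligands, lay below both limits. So did Cd226 (5.45 and 5.59) and Cd96 (6.03 and 6.20), which encode receptors for Pvr. Pdcd1, which encodes PD-1, had 7.54 and 7.53, between the limits, as did Treml2 with 7.24 and 7.34, a proposed partner of B7-H3. Rgmb, a co-receptor for bone morphogenetic proteins that also binds PD-L2, had 10.21 and 10.30. Tigit, the inhibitory receptor for Pvr known from T and NK cells, had 8.80 and 8.39, above both limits on both arrays.

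The Tigit value stands beside T cell markers of which 4 of 7 passed the first limit and 0 passed the second. The shares of all named genes were 67.3% and 48.9%. The 4 between the limits were Cd3e (7.58 on replicate 1 and 7.60 on replicate 2), Cd8a (7.48 and 7.49), Zap70 (7.31 and 7.32) and Cd247 (7.29 and 7.19). Below both limits were Cd3d (6.45 and 6.45), Cd3g (5.85 and 6.05) and Cd4 (6.90 and 6.91). The summed linear intensity of the 7 T cell markers was 950 on replicate 1 and 955 on replicate 2. Tigit has 1 probe set, and whether its signal comes from the Tigit transcript was not tested.

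Among other B7, butyrophilin and nectin relatives, 14 of 23 measured genes (60.9%) passed the first limit and 7 (30.4%) the second, beside 67.3% and 48.9% of all named genes. Vsir, which encodes the T cell inhibitor VISTA, had 7.96 on replicate 1 and 8.09 on replicate 2, and the B7-like gene Ildr2 had 7.93 and 8.44. Igsf11, an adhesion molecule that binds VISTA, had 9.13 and 8.51 and passed both limits. Vsig4, an inhibitory B7-like receptor of macrophages, had 5.89 and 5.79, Btn1a1 had 6.96 and 6.95 and Btn2a2 6.38 and 6.26, all below both limits. The other 6 that passed the second limit are named after their values were seen. They were the nectins Nectin1 (10.74 and 10.87), Nectin2 (10.96 and 10.62) and Nectin3 (11.49 and 11.64), of the immunoglobulin family to which Pvr belongs, and Lgals9 (12.01 and 12.27), Havcr2 (10.55 and 10.41) and Cd47 (11.08 and 11.43). Lgals9 encodes galectin-9, Havcr2 encodes TIM-3, a receptor for which galectin-9 is a ligand, and Cd47 encodes the signal that restrains uptake by phagocytes. Havcr2 has 1 probe set, and whether its signal comes from the Havcr2 transcript was not tested.

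**Figure D4:**
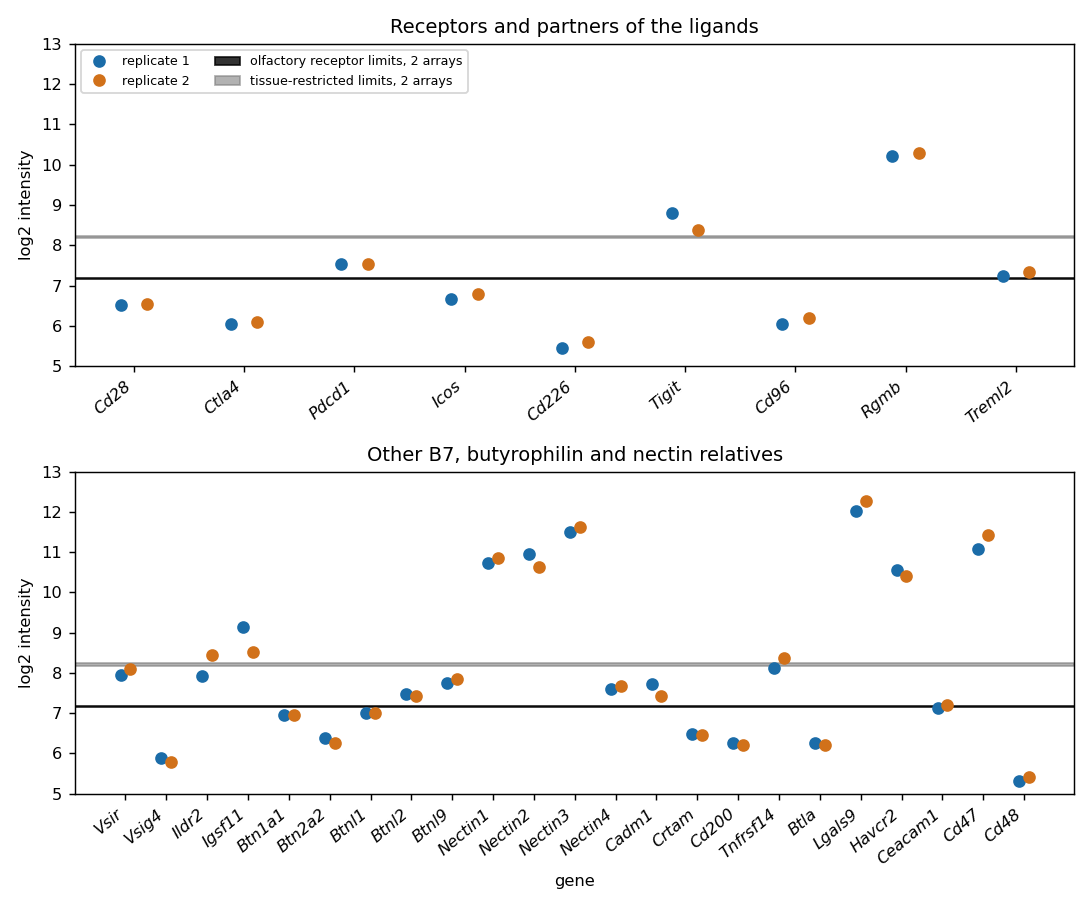
Log2 intensity (vertical axis) on replicate 1 (blue) and replicate 2 (orange) of the receptors and partners (top) and of other B7, butyrophilin and nectin relatives (bottom), with the limits of the 2 arrays as dark and grey bands. Rgmb and Tigit are above both bands in the top panel, and Nectin1, Nectin2, Nectin3, Lgals9, Havcr2, Cd47 and Igsf11 in the bottom panel.

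Genes of the signalling routes known to induce Cd274 and Cd80 gave signal throughout. Interferon gamma acts on Cd274 through its receptor, the JAK kinases and STAT and IRF factors, and 13 of 13 measured genes of this route passed the first limit and 12 the second, beside the shares of 67.3% and 48.9% for all genes. With the highest olfactory receptor probe set as the limit, 8 of the 13 passed, beside 31.4% of all genes. Ifngr1 had 11.14 on replicate 1 and 11.40 on replicate 2, Ifngr2 12.96 and 13.07, Jak1 11.88 and 12.12, and Jak2 10.50 and 10.37. Stat2 had 8.88 and 9.05 and Stat3 11.20 and 11.32. The 1 gene between the limits was Irf1, named after its value was seen, with 8.15 and 8.19. It encodes the factor that binds the Cd274 promoter after interferon gamma, and the series holds no interferon-treated cells.

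In the NF-kB route, which also drives Cd80 in antigen-presenting cells, 10 of 10 measured genes passed both limits, beside 67.3% and 48.9% of all named genes. With the highest olfactory receptor probe set as the limit, 6 of the 10 passed, beside 31.4% of all genes. Nfkb2 had 10.37 on replicate 1 and 10.36 on replicate 2, Rela 11.52 and 11.45, Relb 8.59 and 8.60, Rel 10.02 and 9.80, Ikbkb 9.36 and 9.49 and the inhibitor Nfkbia 10.81 and 10.63. Cd40, a receptor of this route named after its value was seen, differed most in it between the arrays, with 9.11 and 8.31, a 1.74-fold higher intensity on replicate 1. Pvr was higher on the same array, and with 2 arrays no relation between genes can be computed. Nfkb1 and Chuk were not analysed here.

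The amount of PD-L1 also depends on how the protein is handled in the cell, and 16 of 16 genes of that list passed the first limit and 14 the second, beside 67.3% and 48.9% of all named genes. Cmtm6, which keeps PD-L1 at the cell surface, had 10.62 on replicate 1 and 10.77 on replicate 2, and its relative Cmtm4 had 9.81 and 9.93. The glycosylation subunits Stt3a and Stt3b had 12.99 and 13.03, and 12.24 and 12.19. Csnk2a1 had 12.13 and 12.06, and the ubiquitin ligase gene Cop1 10.41 and 10.62. The 2 genes short of the second limit on at least 1 array were the metalloproteinases Mmp9 (7.97 and 7.81) and Mmp13 (7.76 and 8.41), named after their values were seen. These are RNA levels, and no B7 protein was measured.

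Markers of FRCs and of the other cells that make B7 ligands were read on the same arrays. The marker counts stand beside 67.3% of all named genes at the first limit and 48.9% at the second. Of 10 FRC markers, 10 passed the first limit and 9 the second, with Pdpn at 12.60 on replicate 1 and 12.73 on replicate 2, and Pdgfra at 11.84 and 11.94. The FRC chemokine gene Ccl19 (8.17 and 7.85) was the 1 that did not pass the second. Its value is the mean of 4 probe sets, and no other FRC marker had more than 1. By the lowest probe set of each gene, 9 of the 10 FRC markers passed the first limit. The collagen gene Col3a1 (10.05 and 11.30) differed 2.38-fold. Of the 10 FRC markers, 8 were higher on replicate 2, with a median difference over the 10 of -0.13 log2 units (replicate 1 minus replicate 2). Over all 13577 genes whose mean exceeded the mean limit, the median difference was -0.005 and the median size of a difference 0.11. Of 21 macrophage and dendritic cell markers, 10 passed the first limit and 1 the second, Cd68 (9.09 and 8.96), a lysosomal gene. Ptprc, the pan-leukocyte gene, had 6.41 and 6.47, Itgax 6.37 and 6.46, Itgam 6.20 and 6.30 and Adgre1 6.10 and 6.16, all below both limits. Above the first limit on both arrays, and above the second on 1 array at most, were Csf1r (7.66 and 7.54), Fcer1g (7.20 and 7.18), Cx3cr1 (8.22 and 8.13), Flt3 (7.24 and 7.22), Zbtb46 (8.21 and 8.18) and Ccr7 (7.82 and 7.82). The MHC class II genes of antigen-presenting cells were split, with H2-Ab1 (8.12 and 8.03), H2-Eb1 (8.21 and 8.01) and their regulator Ciita (7.18 and 7.24) likewise above the first limit, and H2-Aa (6.01 and 5.89) and Cd74 (6.96 and 7.02) below both on both arrays. Lyz2, a macrophage lysozyme gene, had 7.12 and 8.43, below the first limit on replicate 1 and above both on replicate 2. The summed linear intensity of the 21 markers was 3651 on replicate 1 and 3710 on replicate 2. Of the 11 whose mean exceeded the first limit, 9 were higher on replicate 1, with a median difference over the 11 of 0.03 log2 units. Whether the arrays differ in their mix of cells was not tested. Of 6 B cell markers 2 passed the first limit and 0 the second, with summed intensities of 609 and 564, and of 9 endothelial markers 4 and 0, with 1462 and 1504. Beside these values, Cd80 had 10.03 and 10.12 and Cd86, which the same antigen-presenting cells carry, 5.75 and 5.92, and the part of other cells in the Cd80 signal was not tested.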

How the data were processed

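Per the labels, total RNA of 2 replicate samples was made into biotin-labelled single-stranded cDNA. The deposited table holds an intensity for each probe set, unlogged. Per the submitters' processing notes the tool was RMA, with no version stated. Its steps are background subtraction, quantile normalisation and a summary over probes, which compress differences at low signal. The set of arrays it was run on is not stated there. Medians were 286.0 and 285.7.

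The platform annotation assigns 1 gene to 21354 of the 24679 probe sets, which gave 19751 named genes. The 1275 with several genes and the 2050 without a row were left out. Log2 intensities were computed, and probe sets of a gene averaged (Python 3.11.15, pandas 2.3.3). Both arrays had to exceed a limit for a gene to count as above it. Of the 19 genes that set the stricter limit, 7 lay above the lower one and 1 above their own. For arrays the number, 2, limits the precision.

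The members, lists and rules were chosen with earlier results of these data known. The rule named all members and all receptors and partners, and the first 6 measured genes of the lists of relatives, routes and protein handling. It did not cover the marker lists, whose named genes were chosen after their values were seen. Promoter sequences are from RefSeq (GRCm38.p6). The counting of differences between the arrays was tested on simulated data with planted differences. The background limits used here were not part of that test. With 1 group, no test was run. Alternatives were other percentiles and limits, the highest or lowest probe set, each array left out, quantile normalisation, a loess trend removed, other filters and a 1.5-fold difference.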

Additional observations from a re-analysis of the deposited data

How the results depend on the processing

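The count of members above the olfactory receptor limit was 4 under the 90th and 99th percentiles, where the share of all named genes was 74.8% and 52.2%, and under the highest or lowest probe set, quantile normalisation and the tissue-restricted limit, and the count above the tissue-restricted limit was 4 under its alternatives, beside shares of 46.2% to 50.7%. Without replicate 1 or replicate 2 both counts ranged from 4 to 4. With the highest olfactory receptor probe set (9.51 and 9.46) as the limit, added after seeing the data, 3 members passed, without Cd274, beside 31.4% of all genes. The count of members differing 2-fold was 0 under all 7 alternatives. Cd80 had a level of 11.44 by its highest and 8.71 by its lowest probe set, the latter below the highest olfactory receptor probe set. In 21 of 90 alternatives the count of another list moved by over 1.5 times. Receptors and partners had 2 above the 99th percentile, against 4 as reported, and the other relatives 8, against 14. At that percentile, T cell, B cell and endothelial markers had 0 each, against 4, 2 and 4. Macrophage and dendritic cell markers had 5, against 10, and FRC markers 9, against 10. At the 90th percentile, endothelial markers had 7. No member's difference between the arrays changed sign in 32 alternatives. No paired analysis was possible because the series has 1 group.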
